A study of Mus musculus with 3 samples.

Results

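The classical and alternative complement pathways were followed from C1q to C3 in 3 cell fractions of mouse epididymal fat. The 9 genes described are C1qa, C1qb, C1qc, C1ra, C2, C4b, C3, Cfb and C3ar1. They are 9 of the 37073 genes on the arrays, and they are read by 13 of 56605 probes, which are all the probes that carry these gene names. The genes were picked with their levels in these fractions already known, so their values and fold differences are a description.

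Complement is a set of plasma proteins that tag particles and cells for removal and that release small peptides to call in leukocytes. In the classical pathway, C1q binds its target and activates the protease C1r, which activates the protease C1s. C1s cuts C4 and C2, and the product cuts C3. In the alternative pathway, factor D cuts factor B, a fragment of which becomes part of the enzyme that cuts C3. Complement proteins in blood come largely from the liver, but C1q is made mainly by macrophages and dendritic cells, and fat is known for secreting factor D, which is also called adipsin, together with C3 and factor B.

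The fractions came from collagenase-digested fat of male C57/BL mice that were 20 weeks old, for which the labels name no genetic change or treatment, and each was read on 1 Agilent 1-colour array. Stromal vascular cells (SVC) were the lower phase after a spin of 1 s at 9 xg. The floating cells were spun again at 226 xg for 3 min, which gave small proliferative adipocytes (SPA) as the sediment and mature adipocytes (MA) as the floating layer. SVC and SPA were grown in culture to 90% confluency before RNA extraction, while no culture of MA is described, and the labels date MA apart from the other fractions, so cell type, culture and date cannot be told apart in any comparison with MA. Each fraction is defined by how it spins and not by a sorted cell type.

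No difference below has a replicate check, because each fraction has 1 array, and no p-value is given. A level is the log2 of the processed signal minus that of the 75th percentile of the array, so that 0 is the signal which 75% of the spots stay under. The scanner software gave each main probe of the 9 genes an error of 0.14 to 0.15 on its log2 level, which makes an error of 0.20 on a log2 ratio. This error rests mostly on a preset share of 10% of the signal and covers the array and not the animals or cultures. On each array 300 probes were spotted at least 10 times, and 292 of them in SVC, 293 in SPA and 297 in MA had all spots well above background. The median SD of the log2 signal of these brighter probes was 0.04 in SVC, 0.04 in SPA and 0.05 in MA. The share of 59305 spots that stood well above background was 58.6% for SVC, 61.4% for SPA and 61.3% for MA. A gene passed the 5-fold rule, which the study also used, where its probe was well above background on the brighter of the arrays compared and the fold was at least 5. All 9 genes were well above background on all 3 arrays at their main probe.

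The 3 chains of C1q were at least 5-fold lower in SPA than in SVC. C4b, C2 and Cfb were at least 5-fold higher in MA than in SVC and SPA, and the receptor gene C3ar1 was at least 5-fold lower there. This grouping rests on the 5-fold limit. For MA over SPA and for MA over SVC, 8 of the 9 genes had log2 ratios above 0, with C1qa within 2 errors of 0 over SVC. C1ra, C3 and Cfb were also lowest in SPA, C1ra and C3 within 2 errors of SVC. From SVC to SPA, 3 of the 9 genes fell at least 5-fold and 0 rose, where 0.353% of 22663 genes tested fell and 0.322% rose. From SPA to MA, 6 genes rose and 1 fell, where 5.49% of 23956 genes tested rose and 3.98% fell. Between SVC and MA, 3 genes were higher in MA and 1 was lower, where 5.74% of 23453 genes tested were higher and 3.97% were lower. With a limit of 2-fold, 3 genes were lower and 0 higher in SPA than in SVC (all genes 3.25% and 3.9%), 8 were higher and 1 lower in MA than in SPA (15.8% and 17.9%), and 6 were higher and 1 lower in MA than in SVC (17.3% and 18%). These shares over all genes are printed for scale, and nothing is read from them, since the 9 genes were chosen on the same arrays. The median log2 ratio of the 9 genes was -0.34 for SPA over SVC, 3.16 for MA over SPA and 1.33 for MA over SVC, beside medians of 0.05, -0.08 and -0.07 over all genes measured on both arrays.

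**Figure D1:**
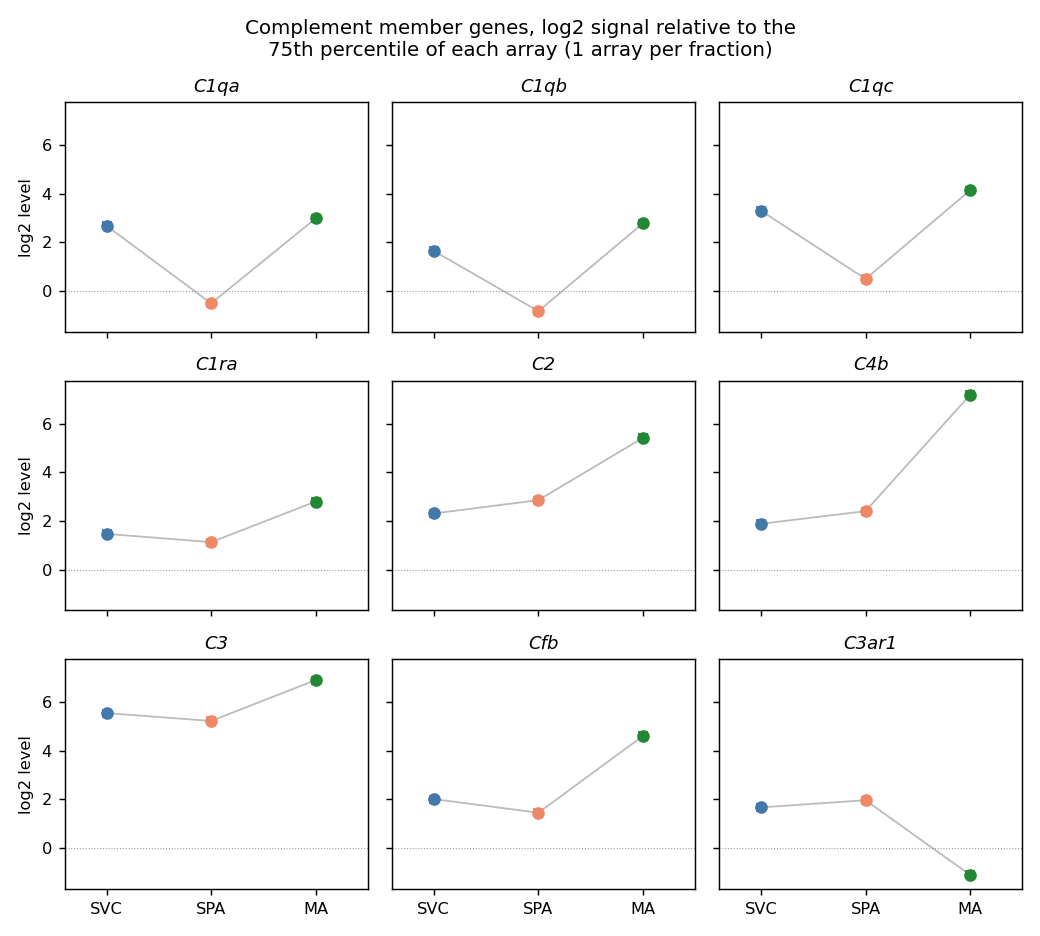
The log2 level of each of the 9 genes at its main probe is plotted for SVC, SPA and MA, with 1 array per fraction and bars for the error of the scanner software, which are about as tall as the points. The 3 C1q genes dip in SPA. All genes but C3ar1 are highest in MA, with C2, C4b and Cfb at least 5-fold above SVC and SPA, and C3ar1 is the gene that is lowest in MA.

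C1q is built from A, B and C chains in equal numbers, and the 3 chain genes lie next to each other, with their main probes inside 15.9 kb of chromosome 4. The probe sequences are shown because each chain is told apart by its probe alone. In the mm9 build, on the minus strand, the probe of C1qa lies at chr4:136452409-136452468, that of C1qb at chr4:136436578-136436637 and that of C1qc at chr4:136445766-136445825. The probes are 60 bases long, and the first 30 bases are given for C1qc.
C1qa: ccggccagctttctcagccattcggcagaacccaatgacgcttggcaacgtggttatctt
C1qb: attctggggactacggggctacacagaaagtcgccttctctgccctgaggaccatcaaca
C1qc: tctgggaaccacctaatggtattattcctg

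The processed signal of C1qa was 2766 in SVC, 309 in SPA and 2908 in MA. SPA stood far below the other fractions, and SVC and MA were close to each other. On the log2 scale the level was 2.68, -0.50 and 2.99, so that C1qa was 9.12-fold lower in SPA than in SVC and 11.3-fold higher in MA than in SPA. The log2 ratio of MA over SVC was 0.31, which is within 2 errors of 0. The ratio of the spot to its local background was 93.8 for SVC, 12.0 for SPA and 95.5 for MA, so the low value in SPA was still a measured one.

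C1qb had a signal of 1356 in SVC, 248 in SPA and 2529 in MA. Its levels were 1.66, -0.83 and 2.79, which was 5.59-fold lower in SPA than in SVC and 12.3-fold higher in MA than in SPA. The log2 ratio of SPA over SVC was -2.48, close to the limit of the 5-fold rule, and it was -2.24 and did not pass with the normexp background correction. MA was 2.19-fold above SVC.

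C1qc had a signal of 4259 in SVC, 621 in SPA and 6479 in MA. The levels of 3.31, 0.50 and 4.15 gave a log2 ratio of -2.81 for SPA over SVC, and MA was 12.5-fold above SPA and 1.79-fold above SVC. A second probe under this gene name, at chr4:136447831-136447890, was not well above background on any array and gives no ratio. In rank among the 20698 genes measured in both SVC and SPA, C1qa was the 10th lowest by log2 ratio, C1qc the 24th and C1qb the 45th. Here as in every fraction, fewer cells that make a transcript and less of it per cell cannot be told apart in bulk RNA.

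The macrophage marker list moved differently from the C1q chains between the cultured fractions. The SVC array measured 12 of its 12 genes well above background, the SPA array 11 and the MA array 12. The summed linear level of the list was 593, 674 and 207 times the 75th percentile. Its brightest gene in each fraction was Lyz2, at levels of 8.74, 8.81 and 6.94. From SVC to SPA, 0 of the 12 passed the 5-fold rule in either direction, with a median log2 ratio of 0.06. Csf1r, the receptor that macrophages need for survival, had a level of 5.11 in SVC and 5.37 in SPA, Adgre1, which encodes F4/80, 3.80 and 3.86, and Ptprc, the leukocyte marker CD45, 1.84 and 1.91. Aif1 and the high-affinity Fc receptor gene Fcgr1 were the lowest of the list by log2 ratio among the genes measured on both arrays, at -2.04 and -1.63. Cd163, a scavenger receptor of resident macrophages, was not well above background in SPA, at -4.39 in SVC and 1.70 in MA.

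Between SPA and MA the macrophage list split. Cd163 was higher in MA by at least 6.84 on the log2 scale and Aif1 by 3.28, while Cd68, a lysosomal protein, was lower by a log2 ratio of -3.10 and Tyrobp, a signalling adaptor, by -2.58. The median log2 ratio of the list was -0.30. The level of Mertk, a receptor for the uptake of dying cells, was -2.05 in SVC, -1.94 in SPA and 0.37 in MA, and that of Mrc1, the mannose receptor, was 1.98, 1.52 and 2.31. The C1q chains were higher in MA than in SPA by log2 ratios of 3.50, 3.62 and 3.65 for the A, B and C chains, which lie between those of Aif1 and Cd163.

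**Figure D2:**
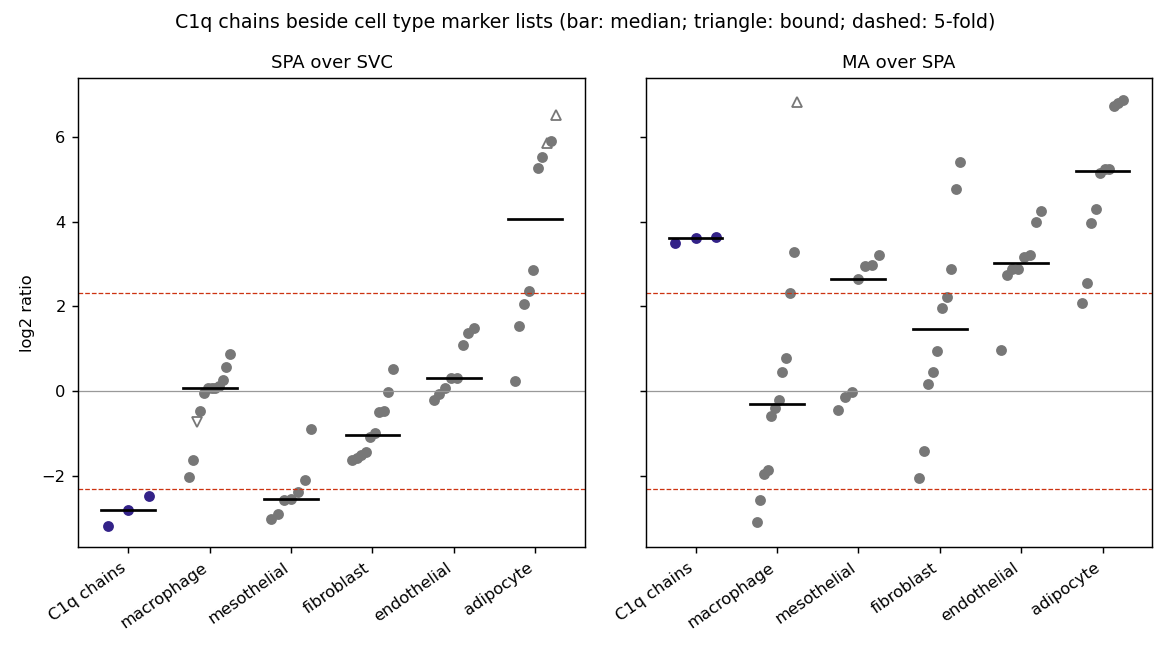
The log2 ratio of each gene is plotted for SPA over SVC (left) and MA over SPA (right), for the 3 C1q chains and for lists of macrophage, mesothelial, fibroblast, endothelial and adipocyte markers. Points are genes, triangles are bounds, bars are medians and dashed lines mark 5-fold. The C1q chains sit between -3.19 and -2.48 on the left, where the macrophage median is 0.06 and the mesothelial median is -2.56.

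Mesothelial markers belong to the cells that line the surface of visceral fat. Like the C1q chains, they were lower in SPA than in SVC, in 7 of 7 cases, and some of them were higher again in MA. In each fraction all 7 of these genes were well above background, and their summed linear level was 43.6 in SVC, 10.8 in SPA and 23.6 in MA. From SVC to SPA, 5 of the 7 fell at least 5-fold, with a median log2 ratio of -2.56, and from SPA to MA 4 rose, with a median of 2.65. The other 3 genes had log2 ratios below 0 for MA over SPA, which were -0.03 for Upk1b, -0.14 for Wt1 and -0.45 for Krt8. With the normexp background correction, Upk3b (log2 ratio -2.28), Krt19 (-2.03) and Lrrn4 (-1.79) no longer passed from SVC to SPA. The level of Msln, which encodes mesothelin, was 2.96 in SVC, 0.38 in SPA and 3.36 in MA. The fibroblast list had a summed level of 552, 261 and 575, with all 10 of its genes well above background in each fraction, 0 of them past the 5-fold rule from SVC to SPA and a median log2 ratio of -1.04 there. The part of either list in the C1q result was not tested. The smooth muscle and pericyte list of 7 genes was well above background throughout in each fraction. Its summed level was 727, 330 and 59.3, and Acta2 and Tagln were its brightest genes in SVC, at 8.29 and 8.58. Its median log2 ratio was -0.69 for SPA over SVC and 0.63 for MA over SPA. From SVC to SPA, 0 of the 7 rose at least 5-fold and 1 fell, which was Cnn1 (log2 ratio -3.75). From SPA to MA, 2 of the 7 rose at least 5-fold, Rgs5 (log2 ratio 5.33) and Cspg4 (2.72). The 2 that fell were Acta2 (-2.69) and Tagln (-3.10). At the median of their probes, Acta2 and Cspg4 did not pass. The SVC array measured 4 of 10 dendritic cell and lymphocyte markers well above background, the SPA array 6 and the MA array 8. For 6 neutrophil markers these numbers were 5, 4 and 5. The median log2 ratios for SPA over SVC were 0.14 over 6 genes with a ratio and 0.62 over 5. Of the neutrophil markers, S100a8 was higher in SPA than in SVC, by 2.57. S100a9 was not well above background in SPA and was lower there by a log2 ratio of at least -2.70. With the normexp background correction this bound was -1.07 and did not pass. In MA over SPA, S100a9 was higher by at least 5.34.

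The genes whose pattern lay nearest to the mean pattern of the 3 C1q chains were found by the Euclidean distance of the centred log2 levels over the 3 arrays, among 19856 genes well above background on each. They were Serpina3g, which encodes a serine protease inhibitor, at a distance of 0.20, Mogat2, an enzyme of triglyceride synthesis, at 0.21, Gpm6a, a membrane glycoprotein, at 0.30, the mesothelial marker Upk3b at 0.34 and C130033p17rik at 0.40. Serpina3g had levels of 0.54 in SVC, -2.02 in SPA and 1.51 in MA. Upk3b has no ratio once spots with an outlying local background are left out. With 3 arrays a pattern has few ways to differ, and 33 genes lay within a distance of 1.

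Promoter sequence was at hand for 5 of the 9 genes, as the 250 bases before the RefSeq start in the GRCm38.p6 build, whose coordinates differ from those of the probes. The promoters of C1qb, at chr4:136886201-136886450, and of C1qc, at chr4:136892915-136893164, both on the minus strand, are shown because these genes shared the dip in SPA. The capitals mark the letters GAGGAA on either strand, the core bound by PU.1, a transcription factor of macrophages and other myeloid cells.
C1qb promoter: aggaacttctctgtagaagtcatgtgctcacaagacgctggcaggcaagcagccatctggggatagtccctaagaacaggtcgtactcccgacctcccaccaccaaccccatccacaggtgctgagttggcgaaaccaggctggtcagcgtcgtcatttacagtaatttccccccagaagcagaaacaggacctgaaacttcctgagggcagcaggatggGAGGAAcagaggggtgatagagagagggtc
C1qc promoter: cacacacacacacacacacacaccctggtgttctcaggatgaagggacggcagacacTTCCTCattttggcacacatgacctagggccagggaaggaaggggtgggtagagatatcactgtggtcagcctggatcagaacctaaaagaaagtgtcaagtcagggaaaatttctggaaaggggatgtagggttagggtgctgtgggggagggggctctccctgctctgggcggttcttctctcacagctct

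The match begins 30 bases before the start in C1qb and 193 bases before it in C1qc, and there was 1 match in each. These letters were in 23.3% of 32851 promoters of the same length, so their presence is a description of the sequence and not of a bound site. C1ra, C3 and C3ar1 had 0 matches in this window. The promoters of C1qa, C2, C4b and Cfb are not in the table used here.

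C1ra encodes the protease C1r, which C1q activates, and its probe lies at chr6:124473052-124473111 on the plus strand. Its signal was 1192 in SVC, 961 in SPA and 2547 in MA. The levels were 1.47, 1.13 and 2.80, with SVC and SPA within 2 errors of each other and MA above both, by 3.18-fold over SPA and 2.51-fold over SVC. C1ra therefore did not pass the 5-fold rule in any comparison. C1s1, the gene of the partner protease C1s, had levels of 2.39, 2.55 and 3.83, and C1rb, a second C1r gene, had levels of -1.85, -2.15 and -0.37, neither of them past the rule.

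C4b encodes C4, the first substrate of C1s. At its main probe, chr17:34865367-34865426 on the minus strand, the signal was 1588 in SVC, 2324 in SPA and 53324 in MA. The MA array stood far above both cultured fractions, 27.5-fold over SPA and 39.5-fold over SVC, while SPA was 1.43-fold over SVC. These were the largest ratios among the 9 genes, with C4b 181st from the top of 20663 genes measured in both SPA and MA. The second probe, at chr17:34866361-34866420, had levels of -0.62 in SVC, -0.29 in SPA and 4.96 in MA, which was 38.0-fold higher in MA than in SPA and 47.8-fold higher than in SVC.

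C4b has a near copy, C4a, on the same chromosome. The second probe of C4b and the probe of C4a, which spans chr17:34948806-34949824, are each annotated to transcripts of both genes, so their signals cannot be assigned to C4b or C4a alone, whereas the main probe of C4b is annotated to C4b. The sequences are shown because the longest run of letters that the second C4b probe shares with the C4a probe is 6 bases.
C4b, second probe: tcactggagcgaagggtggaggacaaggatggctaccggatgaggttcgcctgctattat
C4a: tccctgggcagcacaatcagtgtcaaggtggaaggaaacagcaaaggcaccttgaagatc

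The signal of the C4a probe was 49.7 in SVC, 53.0 in SPA and 1920 in MA. MA was 43.5-fold over SPA and 45.5-fold over SVC, and the log2 ratio of SPA over SVC was 0.07.

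C2 encodes the second substrate of C1s, and the C2 protein supplies the catalytic part of the classical enzyme that cuts C3. Its signal, at chr17:34999575-34999634 on the minus strand, was 2133 in SVC, 3180 in SPA and 15647 in MA. The order was SVC, SPA and MA from low to high, with levels of 2.31, 2.86 and 5.42. MA was 5.91-fold over SPA and 8.63-fold over SVC, and the SPA value was 1.46-fold over SVC.

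Cfb encodes factor B, the counterpart of C2 in the alternative pathway, and the probes of the pair lie within 6.13 kb of each other in the region of chromosome 17 that also holds C4b. The main probe of Cfb, which spans chr17:34993502-34993858 on the minus strand, had a signal of 1743 in SVC, 1204 in SPA and 8945 in MA. SPA was the lowest fraction here, at 1.48-fold under SVC, and MA was 8.92-fold over SPA and 6.04-fold over SVC. The second probe, at chr17:34994617-34994676, gave log2 ratios of -0.58 for SPA over SVC, 3.28 for MA over SPA and 2.69 for MA over SVC, where the main probe gave -0.56, 3.16 and 2.59. C2 and Cfb differed in the sign of their SPA over SVC ratio, and both rose at least 5-fold from SPA to MA.

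C3 encodes the protein on which the pathways meet. Its main probe, at chr17:57343416-57343475 on the minus strand, had a signal of 20233 in SVC, 16459 in SPA and 44062 in MA. C3 did not pass the 5-fold rule in any comparison, with levels of 5.55, 5.23 and 6.91, MA 3.21-fold over SPA and 2.56-fold over SVC, and SVC and SPA within 2 errors of each other. With quantile normalization in place of the 75th percentile, the log2 ratio of C3 for MA over SPA was 2.27 in place of 1.68, still under 5-fold. The second probe, at chr17:57343678-57343737, gave log2 ratios of -0.37 for SPA over SVC, 1.76 for MA over SPA and 1.39 for MA over SVC. Genes with nearly the same pattern as C3 were Apoc2, a cofactor of lipoprotein lipase, at a distance of 0.02, L3hypdh at 0.03, and Entpd6, Irak1bp1 and D3Ertd751e at 0.04 each. These distances lie below the median SD of repeated spots on each array, so which genes come first is not resolved.

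**Figure D3:**
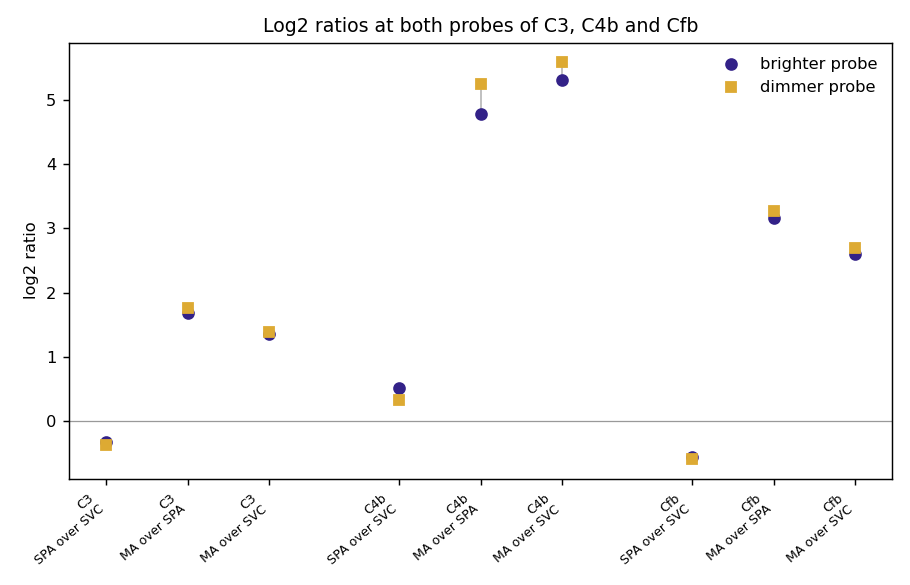
The log2 ratios of the 3 genes with 2 measured probes, C3, C4b and Cfb, are plotted for each comparison, with circles for the brighter and squares for the dimmer probe. The probes of a gene lie within 0.12 of each other for C3 and Cfb, and the widest gap is 0.47, for C4b in MA over SPA.

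The promoter window of C3 held 4 matches to TTNNGNAA, letters bound by factors of the C/EBP family, at 70, 58, 45 and 45 bases before the start, counted on both strands, and these letters were in 36.8% of all promoters. C1ra had 2 such matches and C1qc 1, while C1qb and C3ar1 had 0. For GGG and CC with 5 free bases between them, which is part of the NF-kappaB motif and was in 45.8% of promoters, there were 5 matches in C3, 3 in C1qc, 2 in C1qb, 1 in C3ar1 and 0 in C1ra, with overlapping matches counted each. The 5 promoters held 0 matches to GAAA repeated with 2 free bases between the copies, an IRF motif in 2.98% of promoters, and 0 to TTCNNNGAA, a STAT motif in 7.02%. Nothing about the factors is drawn from these matches.

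C3ar1 encodes the receptor for the peptide released when C3 is cut, and it is found mainly on myeloid cells. At chr6:122798222-122798281 on the minus strand, its signal was 1375 in SVC, 1719 in SPA and 170 in MA. SVC and SPA were within 2 errors of each other, and MA was low, at 7.26 times its local background. The levels of 1.68, 1.97 and -1.10 made C3ar1 8.41-fold lower in MA than in SPA and 6.86-fold lower than in SVC, which was the one fall among the 9 genes in these comparisons.

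Of the other receptor genes, Itgax and Itgb2 were also lower in MA than in SPA. They encode the chains of the receptor CR4, and their log2 ratios were -3.07 and -2.84, from levels of 2.90 and 3.06 in SPA to -0.17 and 0.22 in MA. At the median of its probes, Itgax was lower by a log2 ratio of at least -1.98, a bound that did not pass the 5-fold rule. Itgam, whose product pairs with that of Itgb2 in the receptor CR3, had levels of 3.98 in SVC, 3.86 in SPA and 3.46 in MA. The receptor genes C5ar1 and C5ar2 for the peptide released from C5 had log2 ratios of -0.52 and -0.66 for MA over SPA. Beside these values, the macrophage list had its lowest summed level in MA, a sum in which Lyz2 was the brightest gene. Its median log2 ratio for MA over SPA was -0.30, with 5 of 12 genes above 0 and 7 below. The part of the macrophage list in the C3ar1 result was not tested.

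Most adipocyte and endothelial markers and some hepatocyte markers were also higher in MA, where C4b, C2 and Cfb were at least 5-fold above SVC and SPA. From SPA to MA, 9 of 10 adipocyte, 7 of 8 endothelial and 2 of 6 hepatocyte markers rose at least 5-fold. With the normexp background correction, the endothelial genes Pecam1 (log2 ratio 2.01) and Tek (2.07) no longer passed. The adipocyte gene Pparg has no ratio once spots with an outlying local background are left out. The summed linear level of 10 adipocyte markers was 9.21 in SVC, 71.7 in SPA and 2670 in MA, with Adipoq and Plin1 not well above background in SVC and all 10 genes well above it in SPA and MA. That of 8 endothelial markers, all of them well above background in each fraction, was 7.40, 11.3 and 85.8. That of 6 hepatocyte markers was 2.98, 4.20 and 77.0, with 1, 2 and 3 of them well above background. Most of the sum in MA came from Serpina1a, the gene of an alpha-1-antitrypsin, at a level of 6.16 and a log2 ratio of 8.16 over SPA, while Apoa2 had a log2 ratio of 0.15. Alb was at 0.20 in MA and not well above background in SVC and SPA, and Ttr, Fgb and Cps1 were not well above background on any array. The part of these lists in the ratios of C4b, C2 and Cfb was not tested.

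The arrays hold 41 complement genes outside the 9, of which SVC measured 28 well above background, SPA 30 and MA 33. From SVC to SPA, 1 of the 30 genes with a ratio rose at least 5-fold and 1 fell, beside 0.322% and 0.353% of all genes tested. The median log2 ratio of the 30 was -0.01. The gene that rose was Cfd, the adipsin gene, with levels of -1.56 in SVC, 4.16 in SPA and 9.63 in MA. The spot behind these levels and the ratios of Cfd given here had an outlying local background on each array. With such spots left out, Cfd was read by the other of its 2 probes and still passed. The gene that fell was Vsig4, a macrophage receptor for fragments of C3, with levels of -2.04, -4.43 and -3.76. Its log2 ratio was -2.39, beside -2.81 for C1qc, and it was -1.05 with the normexp background correction, which did not pass.

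From SPA to MA, 8 of the 34 genes with a ratio rose at least 5-fold and 2 fell, beside 5.49% and 3.98% of all genes tested. The median log2 ratio of the 34 was 1.06. Those that rose included Cfd (log2 ratio 5.47) and C4a, whose probe is also annotated to C4b and cannot be assigned to C4a alone. Colec11 (at least 4.13), which encodes a lectin that starts the lectin pathway, rose too. So did the terminal pathway genes C6 (at least 4.64) and C8g (2.40), and 3 genes of regulators. Of the regulators, Vtn, the gene of vitronectin, was higher by at least 6.74, Cd59b by 2.76 and Cd59a by 2.43, the last pair encoding inhibitors of the membrane attack complex. The genes that fell were Itgax and Itgb2. With the normexp background correction, Colec11 (at least 1.95), C8g (1.72), Cd59a (2.28) and Cd59b (1.22) did not pass, and C8g has no value once spots with an outlying local background are left out. Between SVC and MA, 6 of 33 genes were higher in MA and 0 lower, beside 5.74% and 3.97% of all genes tested. The median log2 ratio of the 33 was 1.19.

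**Figure D4:**
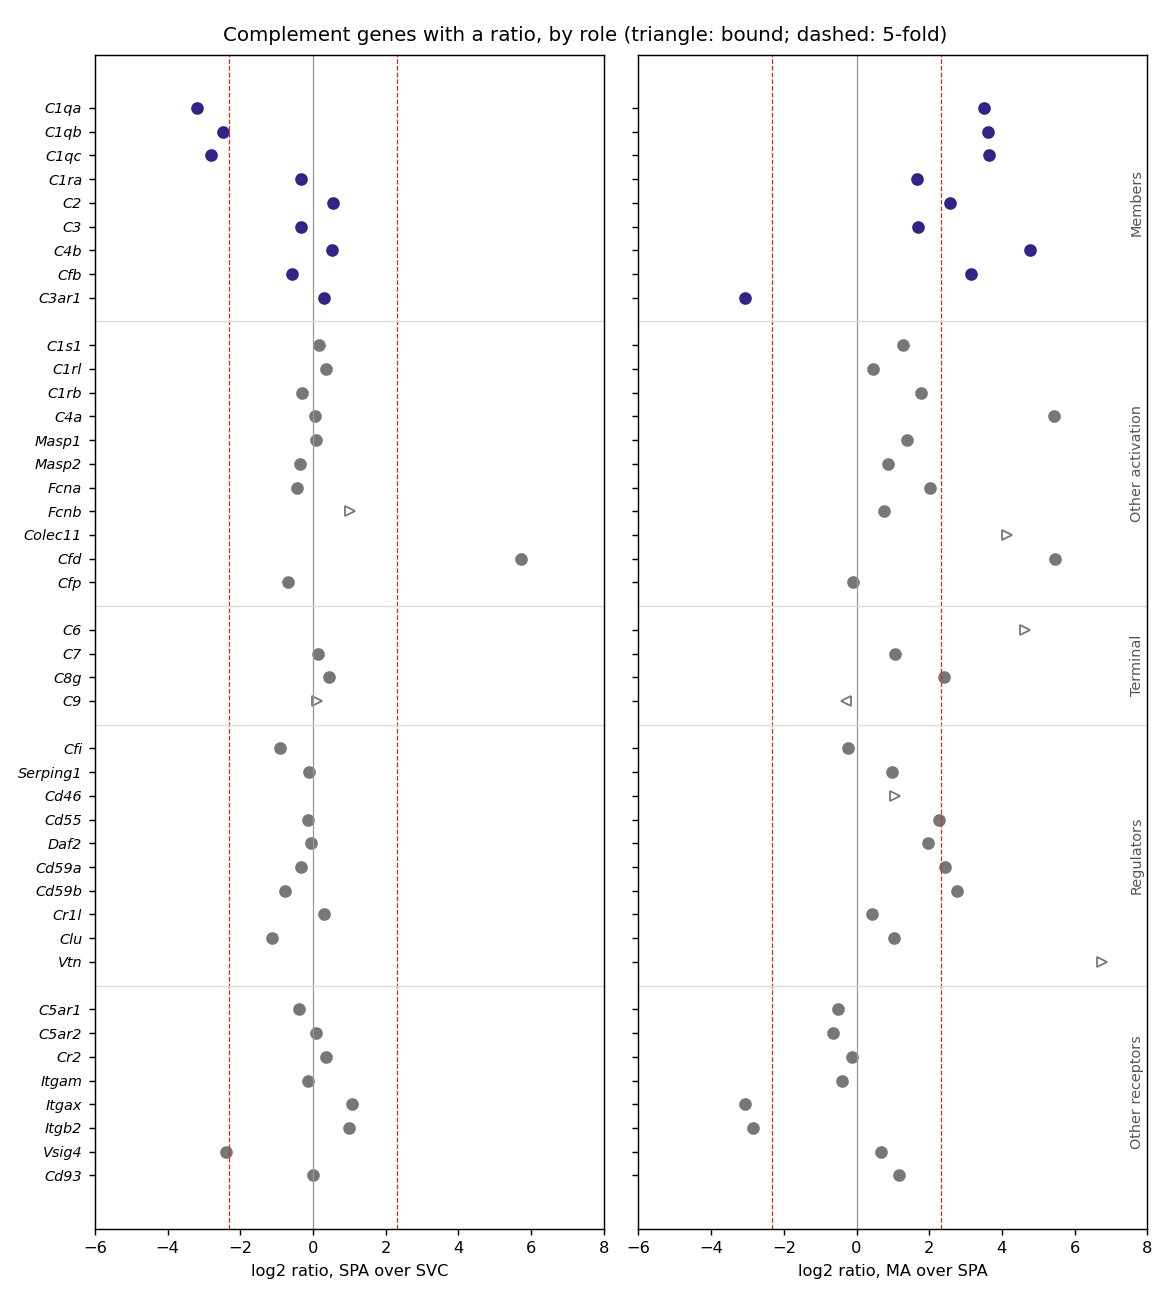
The log2 ratios of the complement genes with a ratio, 1 regulator left out, are plotted by role, for SPA over SVC (left) and MA over SPA (right), with the 9 genes in dark blue, bounds as open triangles and dashed lines at 5-fold. On the left, the 3 C1q chains and Vsig4 lie past the lower line and Cfd, at 5.72, past the upper one. On the right, Itgax, Itgb2 and C3ar1 lie past the lower line.

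The groups of other complement genes differed in their medians. Over the genes with a ratio, bounds included, the median log2 ratio of the activation genes was 0.07 for SPA over SVC (10 of 14 genes) and 1.39 for MA over SPA (11 of 14). It was 0.13 (3 of 7) and 1.73 (4 of 7) for the terminal genes, -0.34 (9 of 12) and 1.96 (11 of 12) for the regulators, and 0.05 and -0.45 for all 8 receptors. Among the regulators, Serping1, the gene of the C1 inhibitor, had log2 ratios of -0.10 for SPA over SVC and 0.99 for MA over SPA. Properdin, which steadies the alternative enzyme and is encoded by Cfp, had levels of 4.34, 3.64 and 3.55, so Cfp differed from Cfb and Cfd in not being higher in MA than in SPA. The lectin genes Mbl1, Mbl2 and Colec10, the C5 gene Hc, the terminal genes C8a and C8b and the regulator gene C4bp were not well above background on any array.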

How the data were processed

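Gene expression was measured on 1 Agilent 1-colour array each of SVC, SPA and MA, made from 50 ng of total RNA, on 1 slide and in 1 scan. The authors deposited the intensity of each spot from Agilent Feature Extraction 10.7.3.1, background-subtracted and detrended within the array, and a value table whose ratio is this signal over 1 constant per array. The fractions were taken from the labels.

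Outlier spots, 75 in SVC, 98 in SPA and 129 in MA, were left out, and spots of 1 probe were averaged. Signals were scaled to the 75th percentile of the non-control spots, which was 430, 439 and 366, and log2-transformed. Where a gene had several probes, the probe brightest on average over the 3 arrays was its main probe. A probe not well above background has only a bound, which is its own signal or, if that is higher, the dimmest signal well above background (13.9, 12.5 and 10.3), and its ratio is written as "at least"; the number of arrays limits the precision. No test was run.

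Named genes were, by rule, the 9 genes at every probe, other complement genes past the 5-fold rule or needed to name a role, markers set beside them, and the 5 genes nearest to the C1q and C3 patterns. The 9 genes, the 13 gene lists and the choices of method were made with earlier results of these data known. The alternatives were the normexp correction with an offset of 50, quantile normalization, a percentile over probes measured on all arrays, the deposited ratios, 2 filters on dim probes, the median or the most extreme probe of a gene, leaving out spots with outlying local background, and a 2-fold limit. The values of 1 regulator gene are not reported here. The calculation was tested on simulated data. Probe positions were taken from the annotation in the files (mm9), and no genome of that build was used, so exons and UTRs are not given. Promoters are from RefSeq (GRCm38.p6). The tools were R 4.3.3 with limma 3.58.1 and Python 3.11.15 with pandas 2.3.3, numpy 2.4.6 and matplotlib 3.10.9.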

Additional observations from a re-analysis of the deposited data

How the results depend on the processing

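All 27 log2 ratios of the 9 genes kept their sign under the 6 alternatives that changed the values of some of them; the other 3, which concern dim probes and outlying local background, left all 27 as they were. The largest spans were those of C3, from 1.65 to 2.27 for MA over SPA and from 1.34 to 2.01 for MA over SVC, with the highest values under quantile normalization, and C1qb was the gene that crossed the 5-fold limit, as given above. Of 120 recomputed counts of genes past the limit, 109 stayed within 1.5 times the first value. With a 2-fold limit, which is a wider rule by construction, 6 of the 9 genes were higher in MA than in SVC in place of 3. Among the 41 other complement genes, that limit gave 3 higher and 2 lower genes for SPA over SVC in place of 1 and 1, 19 higher for MA over SPA in place of 8, and 18 higher and 4 lower for MA over SVC in place of 6 and 0. With the normexp correction, 0 genes were lower for SPA over SVC and 4 higher for MA over SPA, where the genes that no longer passed are named above, and the cause was not tested. When both arrays had to measure a probe well above background, which removes the bounds, 5 were higher for MA over SPA and 3 for MA over SVC. With the median over a gene's probes, 1 was lower for MA over SPA in place of 2. Dim genes are limited by the signal over background, and no interval can be had from 1 array. No paired analysis was possible because each fraction has 1 array.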
